A study of Mus musculus with 6 samples.

Results

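Oxidative phosphorylation subunits are the nuclear-encoded proteins of the mitochondrial respiratory chain and ATP synthase. They were taken here as every gene whose symbol matched the naming pattern of the subunits of complex I (Ndufa, Ndufb, Ndufc, Ndufs and Ndufv), complex II (Sdha to Sdhd), complex III (Uqcr), complex IV (Cox4 to Cox8) or complex V (Atp5). This gave 81 of the 18193 genes measured, 35 in complex I, 4 in complex II, 8 in complex III, 17 in complex IV and 17 in complex V. The pattern used gene names alone, but it was chosen with earlier results of these data known. Each gene was represented by its brightest probe set, a group of short probes against 1 transcript.

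RNA was measured with 1 Affymetrix array per mouse in LSK cells of mouse bone marrow, a lineage-negative, cKit-positive and Sca1-positive sort in which the blood stem cells and the first multipotent progenitors are found. The 3 WT mice (1 female, 2 males) carried Mx1-cre, a Cre recombinase transgene that polyIC switches on in interferon-responsive cells. The 3 N1IC mice (all female) carried Mx1-cre and a lox-stop-lox allele of N1-IC, the active intracellular domain of the receptor Notch1, which Cre releases. All mice were 5 weeks old, had been given polyIC in 3 doses of 20 mcg per g from the age of 21 days, and were analysed 2 weeks after the last dose. The protocol text of every sample names Ncstn flox alleles, whereas the titles and genotypes name N1-IC, and the groups follow the titles and genotypes. The titles of WT replicates 1 and 2 end in the letter b and those of the other arrays do not. What the letter marks is not stated.

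Complex I (NADH dehydrogenase) and complex II (succinate dehydrogenase, also a citrate cycle enzyme) pass electrons to coenzyme Q, complex III passes them on to cytochrome c, and complex IV reduces oxygen. Complexes I, III and IV pump protons, and complex V uses the proton gradient to make ATP. Quiescent stem cells are known to rely largely on glycolysis, and their differentiation and proliferation are known to go with greater use of oxidative phosphorylation. Values are log2 intensities unless a fold is named, and fold changes on the log2 scale subtract the mean of the WT arrays from that of the N1IC arrays. Values of different probe sets differ with the probes as well as with the RNA, so no gene's level is ranked against another's.

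The sorted populations differed widely between the genotypes in genes outside oxidative phosphorylation. At an adjusted p under 0.05, N1IC was higher in 632 and lower in 1512 of all genes (limma with Benjamini-Hochberg adjustment over all genes). Of 8 T cell markers, 6 were higher in N1IC. The other 2, Cd4 and Cd8a, differed by -0.62 and -1.18 on the log2 scale and were not called. The mean over all 8 lay between 6.12 and 7.50 on the WT arrays and between 10.31 and 10.82 on the N1IC arrays. Of 8 measured LSK markers, 5 were lower in N1IC, with list means of 12.05 to 12.22 in WT and 11.02 to 11.08 in N1IC, while Kit, the receptor used in the sort, read 11.76 ± 0.18 (SD, n = 3) in WT and 11.51 ± 0.06 (SD, n = 3) in N1IC and did not pass the test. Megakaryocyte markers (4 of 5), granulocyte and monocyte markers (4 of 8) and B cell markers (3 of 5) were lower, macrophage markers were higher in 2 of 6, and none of 5 erythroid markers was called. Of the 6 macrophage markers, 4 lay above 0 and 2 below, namely Cd68 (-1.04) and Vcam1 (-0.50), neither of them called. In a sorted population, a different share of cells and a different amount of RNA per cell cannot be told apart, and the part of cell makeup in the values below was not tested.

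Against that background, no oxidative phosphorylation gene passed the test between N1IC and WT. limma called 0 of 81 higher, where 3.47% of all genes were called higher, and 0 of 81 lower, where 8.31% were, or 11.8% of all genes in either direction. At an unadjusted p under 0.05 the same limma fit gave 8 of the 81 genes (9.88%), against 26.6% of all genes. The 7 higher of these were Ndufa1, Ndufa10, Ndufb6, Uqcr10, Uqcrq, Atp5k and Atp5md, and Sdha was lower. The smallest adjusted p was 0.113, for Ndufa10. With a variance prior that follows intensity, described below, 3 of the 81 were called higher and 1 lower. The genes are among the brightest on the array, with 63 of 81 at a mean of 12 or above, so genes of that brightness, a set chosen after this was seen, are the nearer background: 5.49% of those 1658 genes were called and 18.8% had an unadjusted p under 0.05.

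The differences were small and their intervals narrow. The median log2 fold change was 0.04 over the 81 genes, with 55 above 0 and 26 below, -0.01 over all genes and 0.02 over the genes with a mean of 12 or above. The median size of the change, without its sign, was 0.06 for the oxidative phosphorylation genes, 0.16 for all genes and 0.09 for the bright genes. Of the 81 genes, 76 (93.8%) differed by less than 0.25 on the log2 scale, a fold of 1.19, against 62.9% of all genes and 84.6% of the bright ones. For 73 genes (90.1%) the whole 95% interval of the difference lay within 0.5 of 0, a fold of 1.41, against 52.5% of all genes and 86.1% of the bright ones. The 8 genes whose interval reached further were Ndufb1, Uqcrq, Cox4i2, Cox6a2, Cox7a1, Cox7b2, Cox7c and Cox8b. Replicates of these genes lay close together, with a median within-group SD of 0.05, against 0.15 for all genes and 0.07 for the bright ones. Many of the genes read near the top of the scale: their highest mean was 13.88, and the highest of all genes was 14.49. The intervals describe array signal after RMA. Whether signal at that height follows the RNA in proportion was not tested, so they do not bound the change in RNA. A missed threshold does not show equal levels. In simulated data of this design limma recovered 0% of genes changed by 0.5 and 61.5% of genes changed by 1 on the log2 scale. The simulation changed 200 of all 18193 genes, fewer than were called in the real data, at the spread of all genes. It therefore does not give the share recovered among the 81 genes, whose replicates lay closer together.

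**Figure D1:**
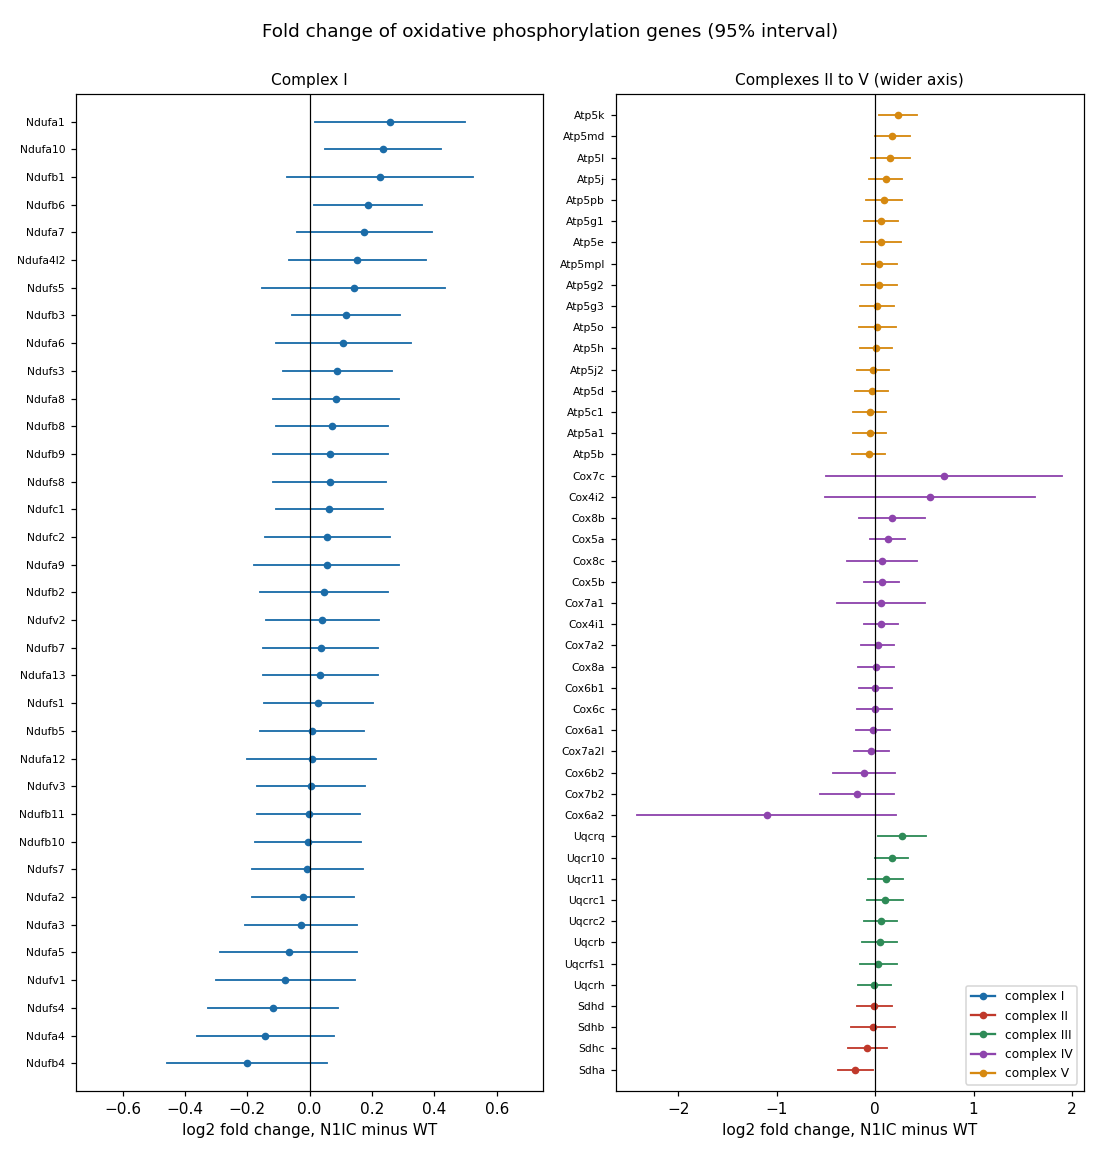
Log2 fold change (N1IC minus WT, horizontal axis) of each of the 81 genes, with its 95% interval from limma (3 arrays against 3), ordered within each complex. Complex I is drawn on a narrower axis than complexes II to V. Most intervals cross 0 within 0.5 of it, and Cox6a2, Cox7c and Cox4i2 have the widest.

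**Figure D2:**
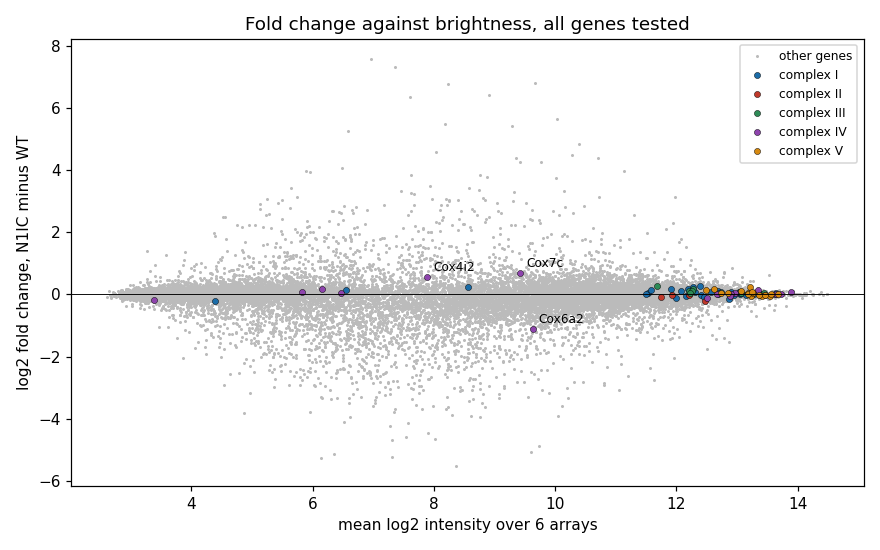
Log2 fold change (vertical axis) against mean log2 intensity over the 6 arrays (horizontal axis) for all 18193 genes in grey and the 81 genes coloured by complex. Most of the coloured points lie at the bright end, at 12 or above and near 0, and Cox4i2, Cox7c and Cox6a2 are labelled.

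Groups without overlap, meaning that the lowest array of one genotype lay above the highest of the other, were found for 19 of the 81 genes. In 15 the N1IC arrays were higher, against 13.1% of all genes and 21.4% of the genes with a mean of 12 or above, so the count is no excess over genes of like brightness. These were Ndufa1, Ndufa10, Ndufa7, Ndufb3, Ndufb6, Ndufs3, Uqcr10, Uqcr11, Uqcrc2, Uqcrq, Cox5a, Atp5j, Atp5k, Atp5l and Atp5md. In 4 they were lower, against 19.7% of all genes and 17.1% of the bright ones, namely Ndufa4, Sdha, Atp5b and Atp5c1. The shared shift was uneven among the N1IC arrays. The median deviation of the 81 genes from their own means was -0.02, -0.0012 and -0.04 on WT replicates 1, 2 and 3, and -0.03, 0.06 and 0.04 on N1IC replicates 1, 2 and 3. N1IC replicate 1 thus lay within the WT range, and 73 of 81 genes were higher on N1IC replicate 2 than on N1IC replicate 1. Without N1IC replicate 2 the median log2 fold change was 0.01 in place of 0.04, and without N1IC replicate 1 it was 0.06.

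**Figure D3:**
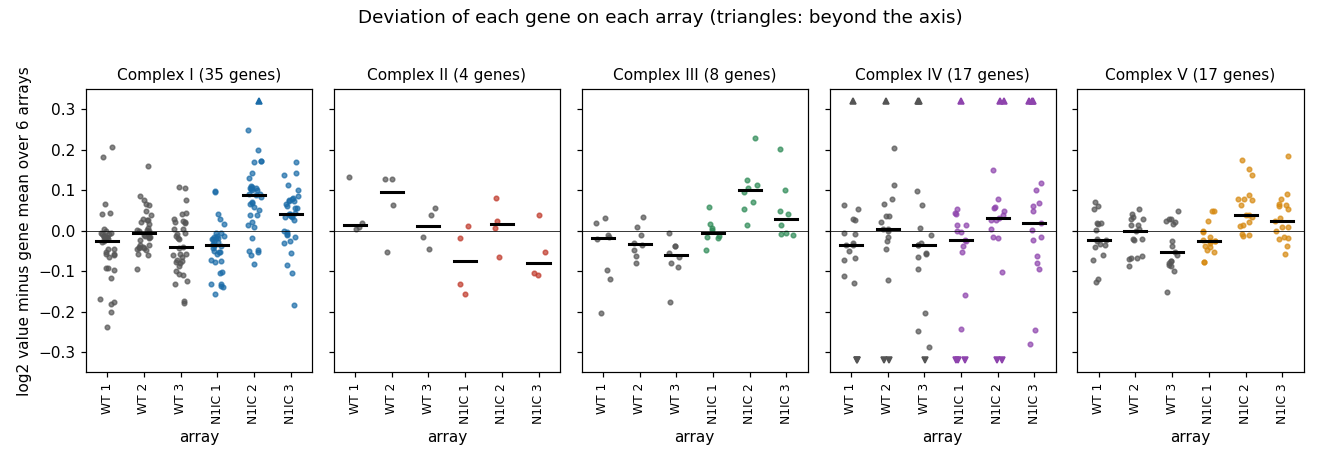
Deviation of each gene from its own mean over the 6 arrays (vertical axis, log2 units) on each array, by complex. Points are genes, black bars are medians and triangles are genes beyond the axis. In every complex except complex II the medians of N1IC replicates 2 and 3 lie above those of the 3 WT arrays.

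Promoters of 66 of the 81 genes, 71 promoters in all, were matched by symbol to the RefSeq promoter table (build GRCm38.p6) and read over the 250 bases before the gene start. Not matched were Atp5a1, Atp5mpl, Cox4i1, Cox4i2, Cox6a2, Cox6c, Cox8c, Ndufa2, Ndufa4l2, Ndufb9, Ndufs1, Sdhc, Uqcrb, Uqcrc2 and Uqcrq. The promoters were searched on both strands for motifs of factors known to act on respiratory genes and of RBPJ, the DNA-binding partner of intracellular Notch. The NRF1 motif CGCATGCG was found in 8.45% of the 71 promoters and in 1.55% of 32851 promoters of all genes, and the GABP motif CCGGAAG in 16.9% and 6.91%. The SP1 motif GGGCGGG was found in 29.6% and 23.4%, the YY1 motif AAGATGGCG in 1.41% and 0.606%, and the ERR alpha motif TCAAGGTCA in 1.41% and 0.387%. The RBPJ motif GTGGGAA was found in 2.82% and 5.42%, namely in the promoters of Atp5k and Cox7c. Such a match describes letters and is no measured binding site. The promoters shown are those of Cox6a1 (chr5:115348959-115349208) and Atp5j (chr16:84834977-84835226), which hold 3 different motifs each, and of Atp5k (chr5:108434400-108434649) and Cox7c (chr13:86046796-86047045), which hold RBPJ letters. All are on the minus strand and written along the gene, and capitals mark the motif letters on either strand, in matches that do not overlap.
Cox6a1: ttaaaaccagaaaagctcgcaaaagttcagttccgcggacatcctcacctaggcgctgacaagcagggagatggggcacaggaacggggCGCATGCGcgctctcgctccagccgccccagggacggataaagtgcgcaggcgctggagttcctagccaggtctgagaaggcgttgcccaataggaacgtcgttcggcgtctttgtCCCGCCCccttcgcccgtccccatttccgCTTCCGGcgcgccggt
Atp5j: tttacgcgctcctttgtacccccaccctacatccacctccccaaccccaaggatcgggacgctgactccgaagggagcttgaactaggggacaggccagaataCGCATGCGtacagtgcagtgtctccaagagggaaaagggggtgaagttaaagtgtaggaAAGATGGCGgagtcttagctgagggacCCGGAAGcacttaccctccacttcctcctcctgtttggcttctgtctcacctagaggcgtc
Atp5k: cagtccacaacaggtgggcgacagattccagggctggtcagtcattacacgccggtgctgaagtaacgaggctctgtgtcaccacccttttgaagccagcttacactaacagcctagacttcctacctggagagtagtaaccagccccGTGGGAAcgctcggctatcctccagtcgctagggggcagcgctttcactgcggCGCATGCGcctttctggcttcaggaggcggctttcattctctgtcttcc
Cox7c: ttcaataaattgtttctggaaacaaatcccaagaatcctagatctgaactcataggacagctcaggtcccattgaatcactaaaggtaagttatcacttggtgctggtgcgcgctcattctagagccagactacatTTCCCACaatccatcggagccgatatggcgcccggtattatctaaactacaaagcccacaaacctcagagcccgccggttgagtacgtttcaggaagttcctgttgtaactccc
In Cox6a1 the capitals are NRF1, SP1 and GABP in order, in Atp5j NRF1, YY1 and GABP, in Atp5k RBPJ and NRF1, and in Cox7c RBPJ. The genes with these promoters did not share a pattern across the arrays: Cox6a1 differed by -0.02, Atp5j by 0.11, Atp5k by 0.23 and Cox7c by 0.70 on the log2 scale, and none passed the limma test.

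Complex I had 25 genes above 0 and 10 below, with a median log2 fold change of 0.05. Its core subunits, which carry the flavin and the iron-sulfur clusters, were close to level. Ndufs1, the largest core subunit, read 11.47, 11.45 and 11.52 in WT and 11.48, 11.48 and 11.57 in N1IC, a log2 fold change of 0.03 with a 95% interval from -0.15 to 0.20. Ndufv1, which binds NADH and flavin, read 12.44, 12.50 and 12.52 in WT and 12.31, 12.55 and 12.36 in N1IC, a difference of -0.08 with an interval from -0.30 to 0.14. Both pairs of groups overlapped. Over the 9 genes of the NADH-oxidising module the median was 0.01, and over the 5 genes of the module that reduces coenzyme Q it was 0.05.

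The 19 accessory subunits of the membrane arm had a median of 0.06, with 15 above 0. Ndufa10 read 12.09, 12.17 and 12.19 in WT and 12.31, 12.44 and 12.41 in N1IC. Its 3 N1IC arrays lay above all 3 WT arrays, and the log2 fold change was 0.23 ± 0.08 (SE), with an adjusted p of 0.113 in limma. A second, dim probe set of Ndufa10 differed the other way, by -0.30. Ndufa1, an X-linked subunit needed for assembly of the membrane arm, read 12.15, 12.38 and 12.26 in WT and 12.49, 12.64 and 12.43 in N1IC, again without overlap. Its log2 fold change was 0.26 ± 0.10 (SE), with an adjusted p of 0.161 in limma, and it was 0.14 with sex as a covariate. Ndufb6 read 11.80, 11.86 and 11.81 in WT and 12.01, 12.06 and 11.96 in N1IC, a difference of 0.19 with an adjusted p of 0.161 in limma. Ndufa7, an accessory subunit of the NADH-oxidising module, was measured by 5 probe sets, and all 5 were higher in N1IC, by 0.18 to 0.25. None of them passed the test.

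Other bright accessory subunits of complex I hardly differed. Ndufb11 read between 13.60 and 13.67 on all 6 arrays (log2 fold change -0.003), Ndufb7 between 13.57 and 13.73 (0.04), and Ndufa13, first found as a gene of interferon- and retinoid-induced cell death, between 13.30 and 13.45 (0.03). Each of these had overlapping groups and a 95% interval that ended below 0.25 in size on both sides. Ndufb4 was represented by a dim probe set that read 4.58, 4.56 and 4.35 in WT and 4.24, 4.44 and 4.21 in N1IC (-0.20), because its other probe sets also match Ndufb4b and Ndufb4c and were not used.

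Ndufa4 was first assigned to complex I and is now known as a subunit found with complex IV. It read 13.08, 12.86 and 12.90 in WT and 12.74, 12.82 and 12.85 in N1IC. The groups were apart by a narrow margin, with N1IC lower by 0.14 ± 0.09 (SE) and an adjusted p of 0.383 in limma. Its paralog Ndufa4l2, a target of hypoxia signalling, was dim and read 6.45, 6.53 and 6.42 in WT and 6.51, 6.75 and 6.61 in N1IC, with overlap.

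Complex II was the only complex with every gene below 0, in a set of 4 genes with a median of -0.05. Sdha, the flavoprotein that oxidises succinate, read 12.60, 12.60 and 12.51 in WT and 12.34, 12.40 and 12.36 in N1IC. All N1IC arrays lay below all WT arrays, at an N1IC to WT fold of 0.871 and a log2 fold change of -0.20 ± 0.07 (SE), with a 95% interval from -0.37 to -0.03 and an adjusted p of 0.141 in limma. Its next brightest probe set gave -0.17, and its dim probe sets gave 0.06 and 0.75. Sdhb, the iron-sulfur subunit, read 12.22, 12.27 and 12.16 in WT and 12.05, 12.28 and 12.24 in N1IC, so the groups overlapped. The membrane anchors Sdhc and Sdhd differed by -0.08 and -0.01, also with overlap. With the mean of all probe sets per gene, 3 of the 4 genes lay above 0 and the median was 0.02, so the direction of complex II depends on the probe sets used.

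Complex III had 7 of 8 genes above 0 and a median of 0.08. Its subunit cytochrome c1 (Cyc1) does not match the naming pattern and is not among the 8. The core proteins Uqcrc1 and Uqcrc2 differed by 0.10 and 0.06, and Uqcrfs1, the Rieske iron-sulfur protein, by 0.03. Uqcrc2 read 13.05, 13.08 and 12.99 in WT and 13.08, 13.12 and 13.08 in N1IC, and its groups were just apart. The small subunits around the core gave the larger values. Uqcrq, known as the ubiquinone-binding protein, read 11.47, 11.64 and 11.50 in WT and 11.66, 11.91 and 11.88 in N1IC. The groups did not overlap, although N1IC replicate 1 lay close to WT replicate 2, and the log2 fold change was 0.28 ± 0.10 (SE) with an adjusted p of 0.144 in limma. Uqcr10 read 12.16, 12.23 and 12.19 in WT and 12.33, 12.37 and 12.38 in N1IC, a difference of 0.17 ± 0.07 (SE) with an adjusted p of 0.183 in limma. Uqcrb and Uqcrh differed by 0.05 and -0.01.

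Complex IV split into the subunits made in most tissues and the isoforms known from muscle, testis, lung and other tissues. The 9 subunits made in most tissues had a median log2 fold change of 0.03. Cox5b, a zinc-binding subunit on the matrix side, read 13.82, 13.89 and 13.85 in WT and 13.86, 13.94 and 13.94 in N1IC, and Cox4i1, the largest nuclear-encoded subunit, read 12.94, 12.98 and 12.91 in WT and 13.02, 13.03 and 12.95 in N1IC. Both overlapped between the groups. Cox5a, its neighbour on that side, read 13.22, 13.32 and 13.27 in WT and 13.35, 13.42 and 13.44 in N1IC, without overlap, by 0.13 ± 0.07 (SE) and with an adjusted p of 0.328 in limma. Cox6a1, Cox6b1, Cox7a2 and Cox8a each differed by 0.03 or less in size, and Cox7a2l, a factor of respiratory supercomplexes, by -0.04.

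The 7 tissue isoforms of complex IV varied more, with a median within-group SD of 0.21, and Cox6a2 stood furthest from 0 among all 81 genes. Cox6a2, the heart and skeletal muscle isoform of Cox6a1, read 8.98, 11.02 and 10.55 in WT and 9.26, 8.62 and 9.35 in N1IC. WT replicates 2 and 3 were high, and WT replicate 1 lay within the N1IC range. The log2 fold change was -1.10 ± 0.54 (SE), an N1IC to WT fold of 0.466, with a 95% interval from -2.42 to 0.21 and an adjusted p of 0.262 in limma. Without WT replicate 1 it was -1.70 with an adjusted p of 0.0222 in limma, the only alternative in which it was called. Without WT replicate 2 it was -0.69, and with sex as a covariate it was -1.94, neither past the test. A second probe set of Cox6a2 gave -1.12 with the same arrays high. Its partner Cox6a1 read 13.49, 13.47 and 13.47 in WT and 13.51, 13.45 and 13.40 in N1IC.

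Genes known from plasmacytoid dendritic cells, a list chosen after the values of Cox6a2 were seen, in part varied over the same arrays. All 6 measured genes of 7 had a lower mean in N1IC, 1 of them past the test, and 4 of 6 had their lowest WT value on WT replicate 1. A low WT replicate 1 was not particular to this list: it was the lowest WT array for 8 of 8 granulocyte and monocyte markers, 7 of 8 T cell markers and 4 of 5 erythroid markers. It was not shared by all lists. The counts were 3 of 5 for B cell, 3 of 6 for macrophage, 3 of 8 for LSK and 2 of 5 for megakaryocyte markers. The list mean of the dendritic genes was 9.12, 10.03 and 9.96 on the WT arrays and 8.38, 8.49 and 8.20 on the N1IC arrays. Siglech, a surface receptor of these cells, read 6.90, 9.22 and 9.23 in WT and 5.85, 6.27 and 6.28 in N1IC. Irf8, a transcription factor of dendritic and monocyte progenitors, read 11.28, 12.83 and 12.69 in WT and 9.13, 9.27 and 9.64 in N1IC, and was lower with an adjusted p of 0.0107 in limma. Tcf4 and Spib of the same list were not lowest on WT replicate 1 among the WT arrays. Tcf4 read 12.79, 12.69 and 12.68 in WT and 12.50, 12.43 and 12.38 in N1IC. Spib read 9.62, 9.63 and 9.03 in WT and 8.71, 9.73 and 8.56 in N1IC. The part of these or other cells in the values of Cox6a2 was not tested.

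Cox7c, a small subunit made in most tissues, had the highest log2 fold change of the 81 genes and also one of the widest intervals. It read 8.94, 9.10 and 9.17 in WT and 10.12, 8.61 and 10.59 in N1IC. N1IC replicates 1 and 3 lay above every WT array, and N1IC replicate 2 lay below every WT array. The log2 fold change was 0.70 ± 0.49 (SE), with a 95% interval from -0.50 to 1.90 and an adjusted p of 0.435 in limma. Without N1IC replicate 2 it was 1.28 with an adjusted p of 0.0206 in limma, and without N1IC replicate 3 it was 0.29 and did not pass. With the mean of both probe sets it was 1.12, also not past the test. The dimmer probe set of Cox7c read 6.23, 6.35 and 5.42 in WT and 8.07, 6.24 and 8.34 in N1IC, again with N1IC replicate 2 at the level of the WT arrays.

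The low value on N1IC replicate 2 was shared by other dim probe sets of oxidative phosphorylation genes. Of their 164 probe sets, 6 (3.66%) were at least 1 log2 unit lower on N1IC replicate 2 than on both other N1IC arrays, against 436 of 45037 probe sets on the whole array (0.968%). These were both probe sets of Cox7c and 1 dim probe set each of Cox5b, Cox8a, Ndufa12 and Uqcrq. On N1IC replicates 1 and 3, no probe set of these genes stood as far below the other N1IC arrays, against 0.313% and 0.409% of all probe sets. The probe set of Cox5b in question read 8.01, 6.21 and 8.18 in N1IC and between 6.44 and 7.02 in WT, while the brightest probe set of Cox5b read 13.86 to 13.94 on the same N1IC arrays. The criterion was chosen after these values were seen.

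Cox4i2, the isoform of Cox4i1 known from lung and from low oxygen, read 8.23, 7.25 and 7.36 in WT and 7.36, 8.29 and 8.84 in N1IC. WT replicate 1 lay close to N1IC replicate 2, the groups overlapped, and the log2 fold change of 0.55 ± 0.44 (SE) had an adjusted p of 0.489 in limma. Cox6b2, the testis isoform of Cox6b1, was bright and read 12.37, 12.71 and 12.60 in WT and 12.55, 12.53 and 12.26 in N1IC (-0.12), with overlap. Cox7a1, the muscle isoform of Cox7a2, and Cox8b, the muscle isoform of Cox8a, were dim, at group means of 6.43 and 6.49 for Cox7a1 and 6.07 and 6.24 for Cox8b. Cox8c and Cox7b2, both known from testis, were dim too, with Cox7b2 at 3.48 in WT and 3.30 in N1IC. None of the 7 isoforms passed the test.

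**Figure D4:**
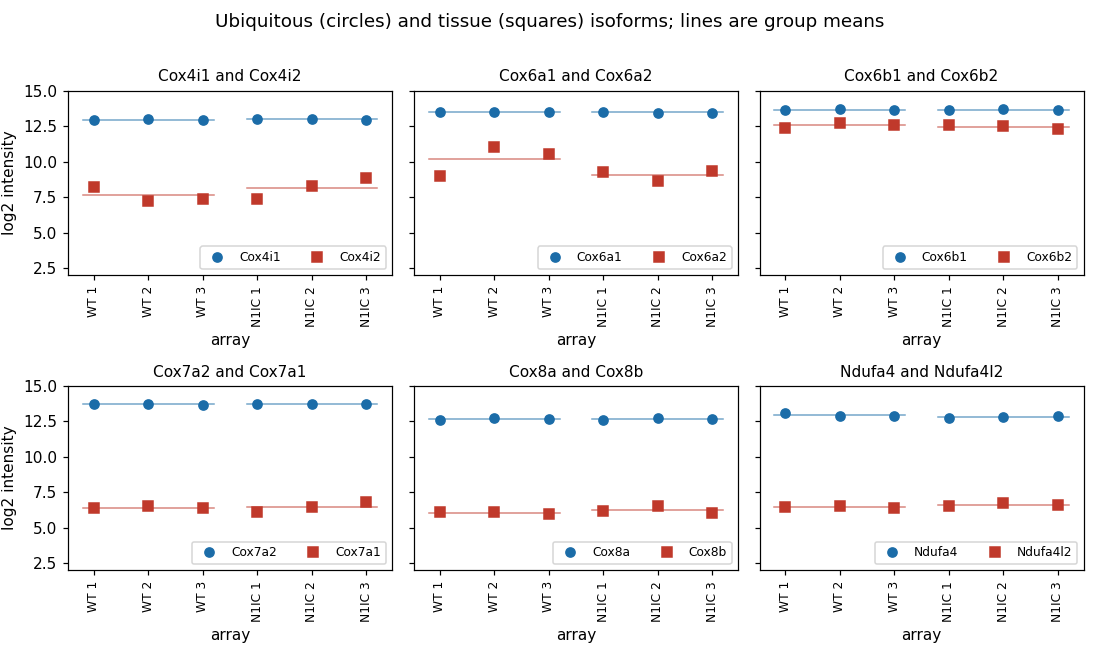
Log2 intensity (vertical axis) on each of the 6 arrays for 6 pairs of a subunit made in most tissues (circles) and its paralog or tissue isoform (squares), with lines at the group means. The circles are near level from array to array, Cox6a2 is high on WT replicates 2 and 3, and heights are not comparable between probe sets.

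Complex V had 12 genes above 0 and 5 below, with a median of 0.04. The catalytic F1 head gave values just below 0, with a median of -0.06 over 5 genes. Atp5b, the catalytic beta subunit, read 13.30, 13.25 and 13.26 in WT and 13.18, 13.22 and 13.20 in N1IC, and the gamma subunit Atp5c1 read 13.56, 13.58 and 13.56 in WT and 13.46, 13.55 and 13.52 in N1IC. In both genes the N1IC arrays lay below the WT arrays, by -0.07 and -0.06 on the log2 scale, with adjusted p of 0.597 and 0.675 in limma. The alpha subunit Atp5a1 differed by -0.06 with overlap. The 3 genes of the rotating c ring, Atp5g1, Atp5g2 and Atp5g3, which encode the same mature protein, differed by 0.06, 0.04 and 0.02, and the stalk subunit Atp5h by 0.01.

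The small membrane subunits of complex V had a median of 0.15 over 5 genes, 4 of them above 0. Atp5k, the e subunit that helps ATP synthase form dimers, read 13.09, 13.15 and 13.07 in WT and 13.24, 13.36 and 13.40 in N1IC. All N1IC arrays were above all WT arrays, at an N1IC to WT fold of 1.17 and a log2 fold change of 0.23 ± 0.08 (SE), with a 95% interval from 0.04 to 0.42 and an adjusted p of 0.125 in limma. Its 3 probe sets gave 0.19 to 0.23. Atp5l, the g subunit and dimer partner of Atp5k, read 12.42, 12.39 and 12.40 in WT and 12.45, 12.66 and 12.56 in N1IC, a difference of 0.15 with an adjusted p of 0.299 in limma. Atp5md read 12.50, 12.55 and 12.55 in WT and 12.67, 12.77 and 12.68 in N1IC, a difference of 0.18 with an adjusted p of 0.187 in limma.

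A variance prior that follows intensity was the one alternative that called several of these genes over the 6 arrays. With it, limma called Atp5k (adjusted p = 0.0235), Ndufa10 (adjusted p = 0.0345) and Atp5md (adjusted p = 0.0438) higher, 3 of 81 where 4.26% of all genes were called higher. It called Sdha lower (adjusted p = 0.0332), 1 of 81 where 9.02% of all genes were called lower. The share called with this prior among the bright genes was not counted. The prior of the main fit did not follow intensity and drew each variance towards a level shared by all genes. The median within-group SD was 0.15 for all genes and 0.05 for the 81. Atp5b, with a within-group SD of 0.024, had an SE of 0.067 in the main fit. The count of 0 called among the 81 genes thus depends on the prior chosen. Over the alternatives with 1 value per gene, the adjusted p in limma ranged from 0.0235 to 0.535 for Atp5k, from 0.0345 to 0.872 for Ndufa10, from 0.0438 to 0.575 for Atp5md and from 0.0332 to 0.775 for Sdha. With the mean of all probe sets, dim ones included, Ndufa10 and Sdha changed sign, to -0.03 and 0.11, without passing the test. When each probe set was tested on its own, a dim probe set of Ndufa3 was called higher (0.58, adjusted p = 0.0477 in limma), while the brightest probe set of Ndufa3 differed by -0.03.

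Probe sets of the same gene were mostly alike where they were bright. Of the 81 genes, 48 had several probe sets, and in 31 of these all pointed the same way. Of the 83 probe sets that were not the brightest of their gene, 54 had a mean of 10 or above, and these differed from the brightest in log2 fold change by at most 0.17. Of the 29 dimmer ones, 9 differed by 0.5 or more.

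The genes that serve the same complexes from outside were also described by lists of names. Over all genes, 3.47% were called higher and 8.31% lower, and the calls among assembly factors and mitochondrial ribosome genes were no clear excess over these shares. Of 45 assembly factors, limma called 1 higher and 0 lower, Lyrm7, which matures the Rieske protein (4.60 in WT, 5.20 in N1IC), and the median log2 fold change was 0.09. Of 76 mitochondrial ribosome genes, 3 were higher (Mrps7 by 0.62, Mrps34 by 0.58 and Mrpl50 by 0.43) and 0 lower, with 66 above 0 and a median of 0.14. Short of a call, more of the 76 leaned higher. At an unadjusted p under 0.05 in limma 20 were higher and 1 lower, against 1756 and 3077 of all 18193 genes. In 34 the N1IC arrays lay above the WT arrays without overlap, against 13.1% of all genes and 21.4% of the genes with a mean of 12 or above, and in 3 they lay below. Among 12 genes of mobile carriers and coenzyme Q synthesis, Coq3, a methyltransferase of that synthesis, was higher by 0.70. These 12 include Cyc1, cytochrome c1, which is a subunit of complex III and no mobile carrier. Among 17 regulators, the nuclear deacetylase Sirt1 was higher by 0.40 and the mitochondrial deacetylase Sirt3 was lower by 0.42 on the log2 scale.

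Glycolysis and the citrate cycle feed the respiratory chain. Glycolysis genes gave lower calls and no higher ones, while the only calls in the citrate cycle list were inhibitory kinases. Of 17 glycolysis genes, 6 were lower and 0 higher, where 8.31% of all genes were called lower and 3.47% higher. All 17 lay below 0 and the median was -0.30. Hk3, a hexokinase of myeloid cells, differed by -2.41, Aldoc by -1.44 and the lactate dehydrogenase Ldhb by -1.11. Of 21 citrate cycle and pyruvate dehydrogenase genes, 2 were lower, a count near the share over all genes, and the median was -0.03. Both were kinases that inhibit pyruvate dehydrogenase, Pdk4 (-2.35) and Pdk2 (-0.89). No enzyme of the cycle and no subunit of the dehydrogenase was called. Of 23 mitochondrial import genes, 1 was lower, the outer membrane channel Tomm40 (-0.93). Of 10 antioxidant and uncoupling genes, 1 was higher, Glrx2 (0.50). None of 49 cytosolic ribosome genes and none of 19 cell division genes was called by limma, with 1 gene of each list at an unadjusted p under 0.05 and medians of 0.00 and -0.01. Differences between these lists and the oxidative phosphorylation genes were not tested. The mitochondrially encoded complex I gene ND5, named after its values were seen, read 13.08, 13.04 and 12.87 in WT and 13.13, 13.12 and 13.08 in N1IC (0.11, adjusted p = 0.466 in limma).

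**Figure D5:**
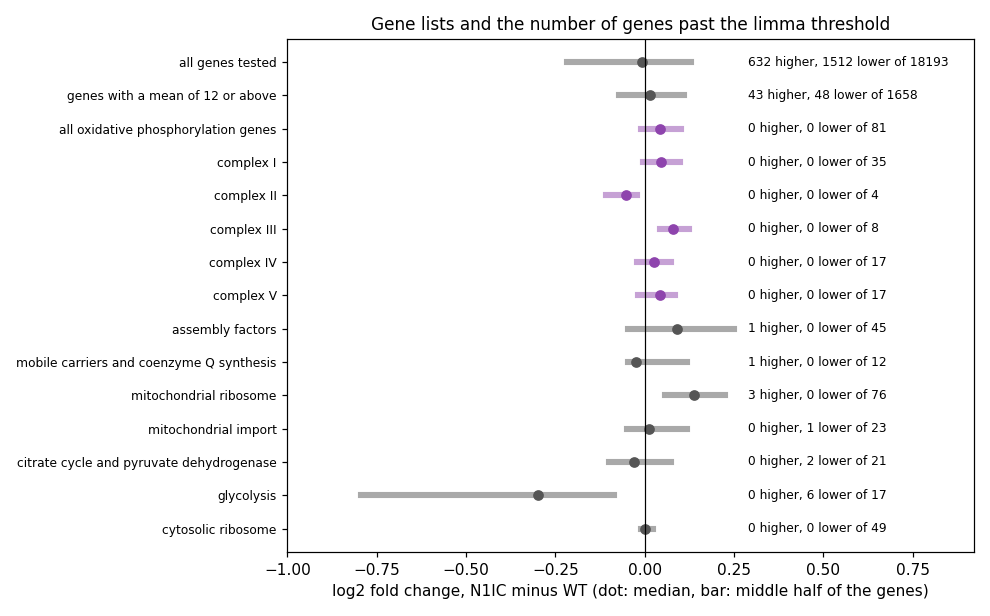
Median log2 fold change (dot) and range from the first to the third quartile (bar) for all genes, genes with a mean of 12 or above, the 81 genes, each complex and other gene lists, with the number called higher and lower by limma. The bars of complexes I to V lie close to 0 with no gene called, and that of glycolysis lies below 0 with 6 lower.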

How the data were processed

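Per the labels, cDNA amplified from 5 ng of total RNA (Nugen Ovation) was biotin-labelled and hybridised. The deposited values are linear probe set intensities that the authors made with RMA, per the submitters' processing notes, with version and settings not given in the sources used here, and log2 was taken before any test. Median intensity lay between 89.0 and 92.4 on the 6 arrays, and their number limits the precision. Detection calls and scan dates were not used here, so no gene is called absent. The labels describe each sample as a mouse's.

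Of 45101 probe sets, the 34945 with a single symbol were used, and the 932 with several symbols, the 9160 without one and 64 controls were left out. RefSeq (GRCm38.p6) gave current symbols for 34741 of those used, and each gene kept its brightest probe set over the 6 arrays. Genes were compared with limma 3.58.1 in R 4.3.3 (two-sided moderated test without covariates, with lmFit and eBayes, on 4 residual and 2.05 prior degrees of freedom), with Benjamini-Hochberg adjustment over 18193 genes and a threshold of 0.05. It was tested on simulated data with 200 changed genes. Intervals are 95% from the same fit. Python 3.11.15, matplotlib 3.10.9 and the R package data.table (version 1.17.8) were also used.

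The members, lists and motifs were chosen with earlier results of these data known. Members named by rule were those past the threshold, and per complex the 3 brightest, those with the highest and the lowest fold change, the core subunits and the isoform pairs. From each other list the rule took up to 3 genes past the threshold, or else the 2 brightest. All other genes named, among them Ndufa10, Ndufa7, Ndufb6, Ndufa3, Uqcr10, Atp5j, Atp5l, Atp5md and ND5, were chosen after their values were seen. Alternatives were sex as a covariate, a block for the replicate number, other normalization, filter, probe set, prior or weight choices, and leaving out each array. Same-numbered arrays did not deviate together (correlations of -0.09, -0.07 and 0.07), and the main test was unpaired. With 3 arrays per group, such correlations cannot show whether the replicate numbers pair the mice. The bright background, the dendritic genes and the probe sets low on N1IC replicate 2 were added after the data were seen.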

Additional observations from a re-analysis of the deposited data

How the results depend on the processing

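In 12 of 16 alternatives limma called 0 of the 81 genes in either direction. Called higher were 3 genes with an intensity trend in the prior and 1 when probe sets were tested singly, and 1 was called lower with the trend. Leaving out 1 array gave between 0 and 1 higher (Cox7c, without N1IC replicate 2) and between 0 and 1 lower (Cox6a2, without WT replicate 1). The median log2 fold change lay between 0.0149 and 0.0650 in every alternative. Of 46 named genes, 21 changed sign in some alternative without a call. With the replicate block, for which it is not known whether the numbers pair the mice, 357 genes of all were higher and 936 lower. The main fit gave 632 and 1512, and with the block 0 of the 81 were called. With sex as a covariate, a fit that sets the N1IC arrays against WT replicate 2 alone, 116 were higher and 333 lower. Each probe set on its own gave 1320 higher. Without 1 array, between 332 and 509 of all genes were higher and between 835 and 1420 lower, in both cases fewest without WT replicate 3 and most without WT replicate 1. The causes were not tested. Dim probe sets, which varied most, limit what can be said of the tissue isoforms, Ndufb4 and Cox7c.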
